A study of Mus musculus with 26 samples.

Results

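Interferon response genes are genes whose transcription rises when a cell senses interferon, and 46 of them were followed here across every group of a study of mouse CD4+ T cells. They were taken by gene symbol from a list of 46 names, and all 46 were found among the 21761 genes of each of the study's count tables. By role the list holds 4 transcription factors, 3 IFIT proteins, 5 OAS proteins, 3 RNA sensors, 2 genes of the ISG15 system, 10 other antiviral effectors, 5 TRIM and PARP genes, 6 guanylate-binding proteins, 5 immunity-related GTPases and 3 surface or antigen presentation genes.

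Polyadenylated RNA was sequenced from 26 libraries of T cells, all from C57BL/6 mice (spleen plus lymph nodes). The first table has 20 libraries. Of these, 12 were made from Foxp3-eGFP mice aged 5 to 6 weeks, in which green fluorescence marks cells that express Foxp3, the transcription factor of regulatory T (Treg) cells. They are freshly sorted naive CD4+ cells (eGFP-negative, CD25-negative, CD62L high, CD44 low), cells activated with anti-CD3 and anti-CD28 (Th0), and induced Treg (iTreg) cultures grown with TGFβ alone, with TGFβ and vitamin C, with TGFβ and retinoic acid (RA), or with TGFβ, RA and vitamin C. Each of these 6 groups has 2 libraries, and the labels do not say whether the cultures were sorted for eGFP. The other 8 libraries are CD4+ eGFP+ Treg cells sorted ex vivo from mice of 3 weeks that carried floxed Tet2 and Tet3 alleles and Foxp3-eGFP, either with the CD4-Cre transgene (Tet2/3-deficient, n = 4) or without it (control, n = 4). CD4-Cre acts in all cells that have expressed CD4, so deletion is not limited to Treg cells. The second table has 6 libraries from reporter mice of 12 to 14 weeks: TGFβ iTreg cells sorted for Foxp3 at day 6 (n = 3), and Foxp3-negative cells sorted from TGFβ iTreg cells on the sixth day after anti-CD3 and anti-CD28 restimulation (n = 3). The tables were normalised separately and are never compared. Levels are the authors' FPKM, which divide by exon length and so compare between genes, given per library in the order of the replicate numbers. Differences are log2 fold changes ± SE from edgeR's quasi-likelihood test, and a gene is said to rise or fall only where its p, adjusted by Benjamini-Hochberg over all genes tested, was under 0.05. Nothing in the labels ties replicates to different mice or dishes. The p-values may therefore reflect technical spread alone.

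As background, type I interferons signal through the receptor chains IFNAR1 and IFNAR2 to STAT2, which works with IRF9 at the interferon-stimulated response element (ISRE). Interferon-gamma signals through IFNGR1 and IFNGR2 to genes with a gamma-activated site (GAS), and it induces IRF1, the guanylate-binding proteins and the immunity-related GTPases strongly. IFIT, OAS, MX1, viperin (Rsad2) and ISG15 are classical antiviral products of the type I response. Many of these genes also have a tonic level in resting T cells that depends on low-level signalling.

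Promoter windows, 250 bases before to 50 after each annotated start, came from RefSeq on build GRCm38.p6 and matched 32 of the 46 genes by gene ID; the count tables were made on mm9, so these coordinates belong to the reference alone. A core ISRE (GAAANNGAAA on either strand) lay in the 250 upstream bases of 15 of the 32 genes (46.9%), against 936 of 27025 genes with an entry (3.46%). A GAS (TTCNNNGAA, which reads the same on both strands) lay in 9 of the 32 (28.1%), against 2197 of 27025 (8.13%). All 3 guanylate-binding proteins with an entry, Gbp2, Gbp3 and Gbp7, held the core ISRE, as did 3 of 4 immunity-related GTPases, 2 of 3 IFIT genes and 2 of 4 OAS genes. The 8 stretches printed here, each upstream of the annotated start, belong to the genes with a core ISRE that changed in the most comparisons, with ties taken alphabetically. They are shown so that the GTPases among them can be read beside the antiviral genes Rsad2 and Ifit1, whose values follow. Capitals mark the core ISRE, and elements that overlap run together.
Gbp3 (chr3:142559970-142560043, plus strand): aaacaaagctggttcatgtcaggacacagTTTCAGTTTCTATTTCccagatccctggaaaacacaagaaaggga
Gbp2 (chr3:142620569-142620648, plus strand): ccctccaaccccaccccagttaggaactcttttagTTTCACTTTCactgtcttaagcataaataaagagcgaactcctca
Gbp7 (chr3:142530248-142530327, plus strand): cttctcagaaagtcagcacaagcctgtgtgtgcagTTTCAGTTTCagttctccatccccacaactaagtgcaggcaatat
Irgm2 (chr11:58214878-58214957, plus strand): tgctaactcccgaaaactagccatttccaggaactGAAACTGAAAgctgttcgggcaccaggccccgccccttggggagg
Igtp (chr11:58199487-58199555, plus strand): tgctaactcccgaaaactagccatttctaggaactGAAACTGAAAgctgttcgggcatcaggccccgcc
Irgm1 (chr11:48871421-48871479, minus strand): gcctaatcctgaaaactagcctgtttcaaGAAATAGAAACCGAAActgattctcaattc
Rsad2 (chr12:26456528-26456607, minus strand): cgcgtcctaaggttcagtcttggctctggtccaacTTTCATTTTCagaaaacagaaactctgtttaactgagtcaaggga
Ifit1 (chr19:34640769-34640848, plus strand): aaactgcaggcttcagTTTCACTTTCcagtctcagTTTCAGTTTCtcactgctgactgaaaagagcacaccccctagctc
The element nearest the start began 39 bases before it in Gbp3, 59 in Gbp2 and 53 in Gbp7, all on chromosome 3. It began 24 bases before the start in Irgm1, 34 in Igtp and 64 in Irgm2, all on chromosome 11. The Irgm2 and Igtp stretches were identical at 67 of the 69 bases they share. In Rsad2 the element began 120 bases before the start, and in Ifit1, which had 2 separate elements, 85. A GAS match lay in lower case inside the printed stretches of Gbp7, Irgm2 and Igtp. A match is a description of the letters, and no binding was measured here.

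Library totals were 9647669 to 11640223 counts for naive and cultured cells. They were 13397602 to 17672302 for Treg cells sorted ex vivo, and day 6 and restimulated libraries had 11293704 to 17219805. Several replicate libraries stood apart in these 46 genes while the median over all genes stayed within 0.021 of 0 on the log2 scale. Th0 replicate 2 was above Th0 replicate 1 for 43 of 46 genes, with a median log2 difference of 0.808, and over 2-fold for 21 of them, against 2.01% of all genes. Among the Tet2/3-deficient libraries, S7 was the highest for 45 of 46 genes (median 0.708 above the other 3). It was over 2-fold higher for 17, against 1% of all genes. Among the controls, S2 was the highest for 39 genes (median 0.578) and S1 the lowest for 36 (median -0.546), with S4 at 0.383 and S3 at -0.339. In the naive, TGFβ, supplemented and restimulation groups the library medians lay between -0.091 and 0.055. Summed B cell markers (5 genes) were 86.9 and 104.3 CPM in controls S1 and S3 against 43.1 and 46.9 CPM in S2 and S4. Their part in this spread was not tested. The Foxp3 counts went with the labels, at 26 to 26.3 CPM in naive cells, 15.5 to 16.4 in Th0, 540.1 to 973 in the TGFβ cultures, 541.5 to 737 in ex vivo Treg cells, 302 to 338 in day 6 iTreg and 13.5 to 17.8 in the restimulated cells. Counts over whole genes do not isolate the deleted exons of the floxed alleles: Tet2 had 1.11 to 1.53 FPKM in Tet2/3-deficient and 0.922 to 1.46 in control libraries (0.02 ± 0.15, adjusted p = 0.93), and Tet3 had 8.69 to 10.3 against 11.4 to 15.5 (-0.52 ± 0.10, adjusted p = 0.00255).

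**Figure D1:**
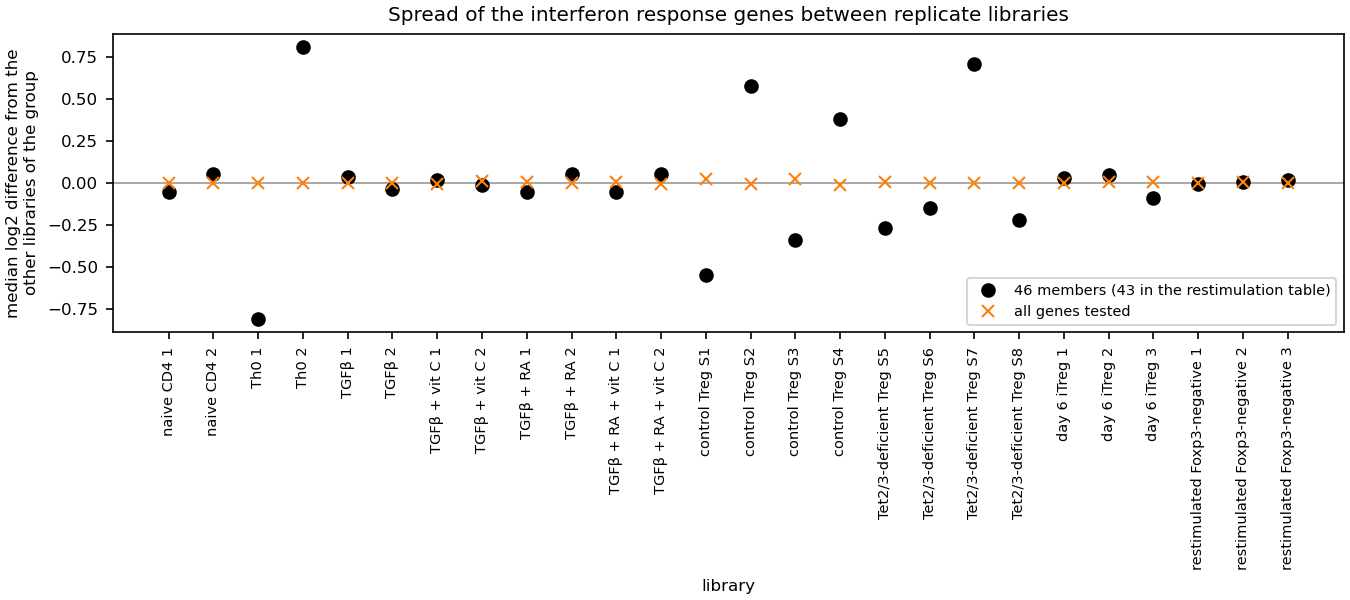
Each library (horizontal axis) by the median log2 difference of the interferon response genes (black points) and of all genes tested (crosses) from the other libraries of its group. The crosses lie near 0 throughout, while the black points of the Th0 libraries sit at -0.808 and 0.808, and Tet2/3-deficient S7 at 0.708.

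Summed over the 46 genes, the FPKM was 2631 and 2831 in naive cells, 1172 and 1515 in Th0, 1332 and 1340 with TGFβ, 1494 and 1512 with vitamin C added, 1346 and 1405 with RA added and 1504 and 1586 with both. Ex vivo, it was 2146, 3306, 2407 and 3039 in the controls and 2126, 2279, 3094 and 2115 in the Tet2/3-deficient libraries. Every naive and ex vivo Treg library was above every culture of this table in the sum. Ly6e, a GPI-anchored surface protein, had the largest level of the list in every library, between 369 and 669.6 FPKM. Rsad2, Mx1 and Ifi44 had 0 to 3 counts per library in the 8 cultures with TGFβ. In the restimulation table the sum was 1351, 1401 and 1347 FPKM in day 6 iTreg and 1619, 1608 and 1608 in restimulated cells. Interferon transcripts themselves were scarce: over all 26 libraries Ifng had 106 counts, Ifnk 3 and Ifnb1 2, and Ifna1, Ifna2, Ifna4 and Ifne 0. Several families hold near-identical paralogs (Gbp, Oas1, Ifit and Irg genes), so the authors' counting could split reads between members.

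**Figure D2:**
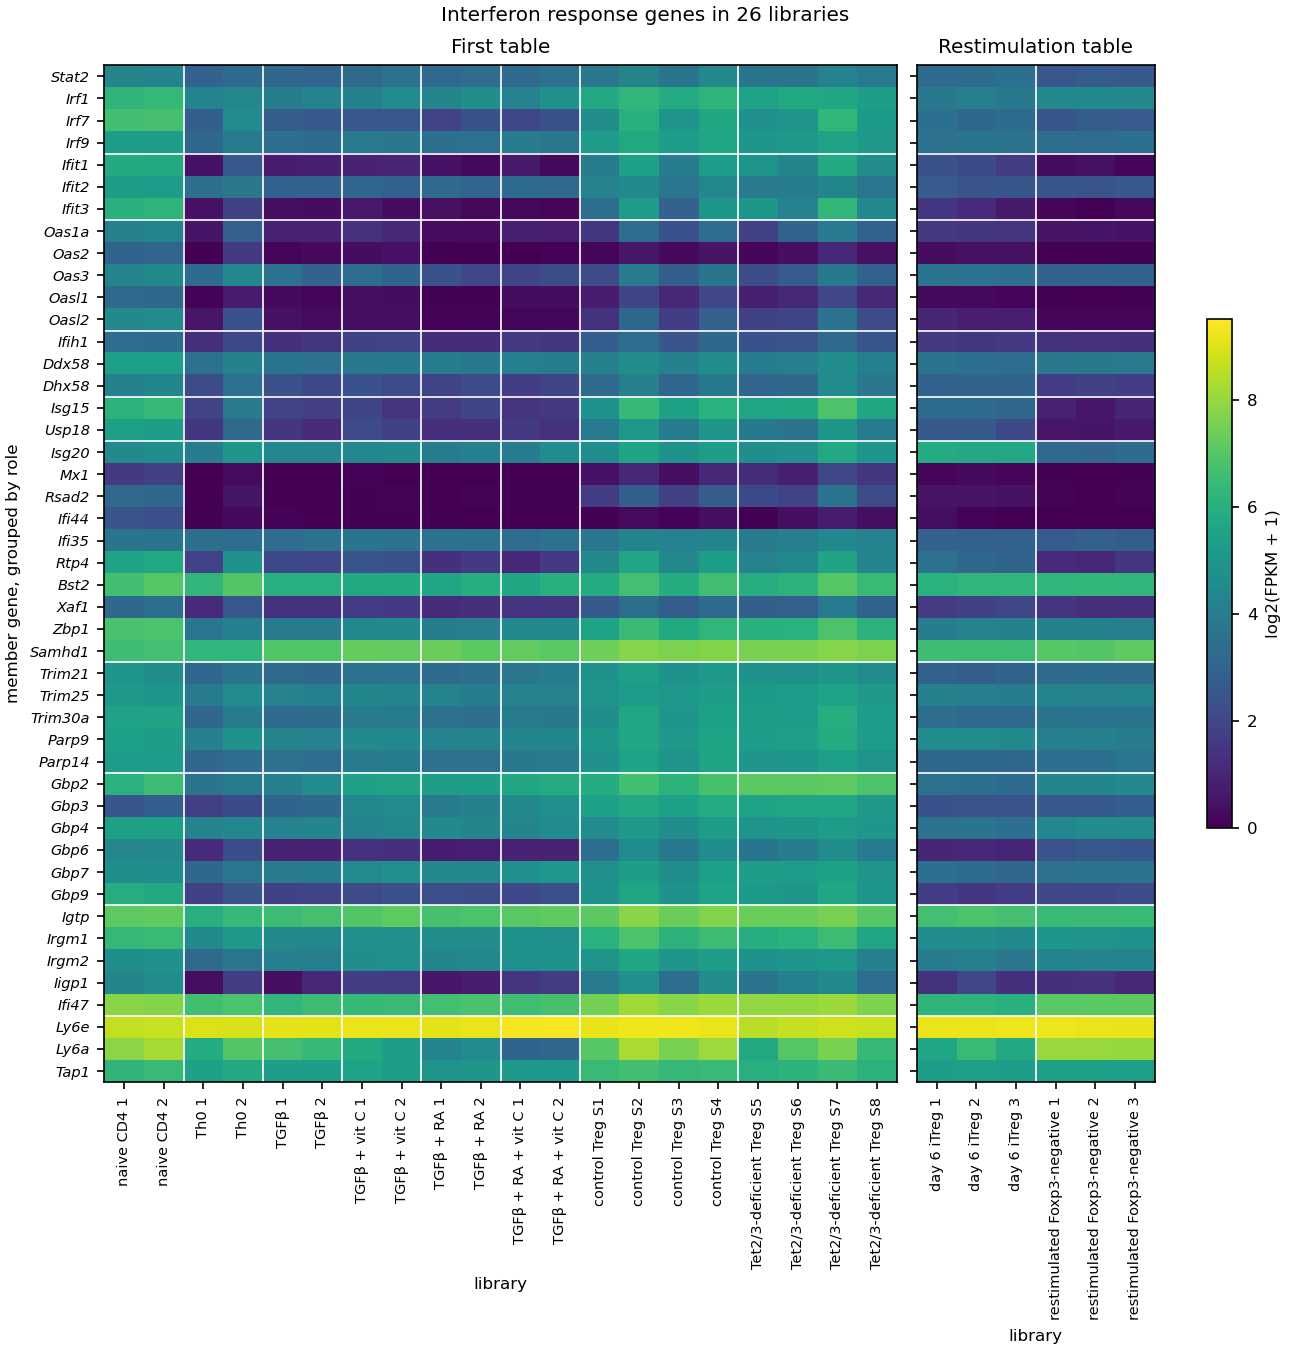
Level of each of the 46 genes (rows, grouped by role, white lines between roles) in each of the 26 libraries (columns), as log2(FPKM + 1), with the 2 tables apart. The naive and ex vivo Treg columns are brighter than the cultures in the Irf7, Ifit3 and Isg15 rows, and Ly6e is bright in every column.

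Th0 against naive cells asks what activation and culture without TGFβ changed. Of 46 genes, 40 fell and 1 rose, where 36.4% of all 11287 genes tested fell and 35.7% rose. The median log2 fold change was -1.74, against -0.01 over all genes. All 3 IFIT genes, RNA-binding inhibitors of translation, fell, and Ifit3 had the largest change. Ifit3 was 65.1 and 72.1 FPKM in the naive libraries and 0.391 and 2.63 in Th0 (-5.54 ± 0.39, adjusted p = 6.10e-07). Ifit1 went from 55.6 and 53.9 to 0.37 and 5.08 FPKM (-4.37 ± 0.63, adjusted p = 4.40e-04). Every naive library was far above both Th0 libraries for these genes, and the Th0 libraries were themselves far apart. Rsad2, the enzyme viperin, was 8.62 and 8.28 against 0.0231 and 0.47 FPKM (-5.12 ± 0.41, adjusted p = 7.50e-08). Ifi44 fell by 5.40 on the log2 scale, Oasl1 by 4.59, Mx1, a dynamin-like GTPase that blocks viral replication, by 4.36 and Oasl2 by 3.25. Isg15, a ubiquitin-like modifier, was 67.6 and 82 against 2.84 and 13.7 FPKM (-3.21 ± 0.43, adjusted p = 1.10e-04), and Usp18, which removes it from its targets, fell by 2.92. All 4 transcription factors fell. Irf7, the amplifier of the type I response, was 97.9 and 103 FPKM in naive and 6.42 and 22.9 in Th0 cells (-2.81 ± 0.43, adjusted p = 5.50e-04). Irf1 was 73.9 and 80.2 against 18.4 and 20 FPKM (-2.03 ± 0.20, adjusted p = 2.73e-06), and Stat2 was 19 and 18 against 6.85 and 9.11 (-1.24 ± 0.13, adjusted p = 6.02e-07). All 6 guanylate-binding proteins fell, with log2 fold changes from -0.92 for Gbp3 to -3.94 for Gbp9, and all 5 immunity-related GTPases fell, from -1.01 for Igtp to -4.10 for Iigp1. Gbp2 was 65.5 and 90.3 against 11.6 and 14.3 FPKM (-2.62 ± 0.17, adjusted p = 7.33e-09).

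Ly6e was the only one to rise, from 398 and 417 to 511 and 488 FPKM (0.26 ± 0.07, adjusted p = 0.00239). Ly6a, the surface protein Sca-1, fell from 229.6 and 294 to 56.2 and 125 FPKM (-1.57 ± 0.33, adjusted p = 0.00296), and Samhd1, a phosphohydrolase that degrades deoxynucleotides, from 92.3 and 100.5 to 74.4 and 74.4 (-0.40 ± 0.09, adjusted p = 7.21e-04). The genes that did not pass were Oas3, Isg20, Ifi35, Rtp4 and Bst2. For Bst2, the virus-tethering protein tetherin, naive and Th0 libraries had 98.8 and 125 against 75.8 and 122 FPKM, and replicate 2 of Th0 reached the naive range (-0.21 ± 0.20, adjusted p = 0.349). Isg20, an RNA exonuclease, had 21 and 25.3 FPKM in naive and 15.1 and 31.8 in Th0 cells. All 41 calls held in every fit that left out 1 library, with 41 to 45 genes called, whereas a fit of the 4 libraries compared called 29. Here and in every later comparison, counts of calls in alternative fits come without the share of all genes called in them. Of the other 107 genes listed for the pathway, 87 were tested and 58 fell and 14 rose. The IFITM genes, membrane proteins that restrict viral entry, rose. Ifitm2 was 0.643 and 0.331 against 315 and 351 FPKM (9.33 ± 0.23, adjusted p = 5.96e-14) and Ifitm3 3.89 and 6.72 against 111 and 161 (4.65 ± 0.23, adjusted p = 6.34e-10). Ifitm1 had 0 counts in naive and 86 in Th0 cells, at least 27.6-fold higher when the naive group is set to a floor of 3 counts. Gbp10, another guanylate-binding protein, fell by 4.30. Among receptor chains, Ifnar1 (-0.58 ± 0.08, adjusted p = 1.68e-05) and Ifngr2 (-0.88 ± 0.13, adjusted p = 2.28e-05) fell and Ifngr1 rose (0.47 ± 0.09, adjusted p = 4.04e-04), while Ifnar2 differed by 0.02 ± 0.08 (adjusted p = 0.802). NK markers summed to 25 to 27.3 CPM in naive and 0.976 to 1.09 in Th0 libraries. Of the naive NK sum, Klrd1 was 13.8 to 16.4 CPM and Eomes 8.26 to 13. Ncr1 was 0 to 0.104 CPM in naive libraries and Klrb1c 0.201 to 0.415. CD8 T cell markers summed to 31.2 to 33.7 CPM in naive against 14.9 to 15.9 in Th0 libraries. Of these sums, Cd8a was 0.504 to 0.518 CPM in naive and 0 in Th0 libraries, and the rest was Cd8b1. The part of these markers in the results was not tested. In bulk RNA, fewer cells of a type and less RNA per cell cannot be told apart.

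**Figure D3:**
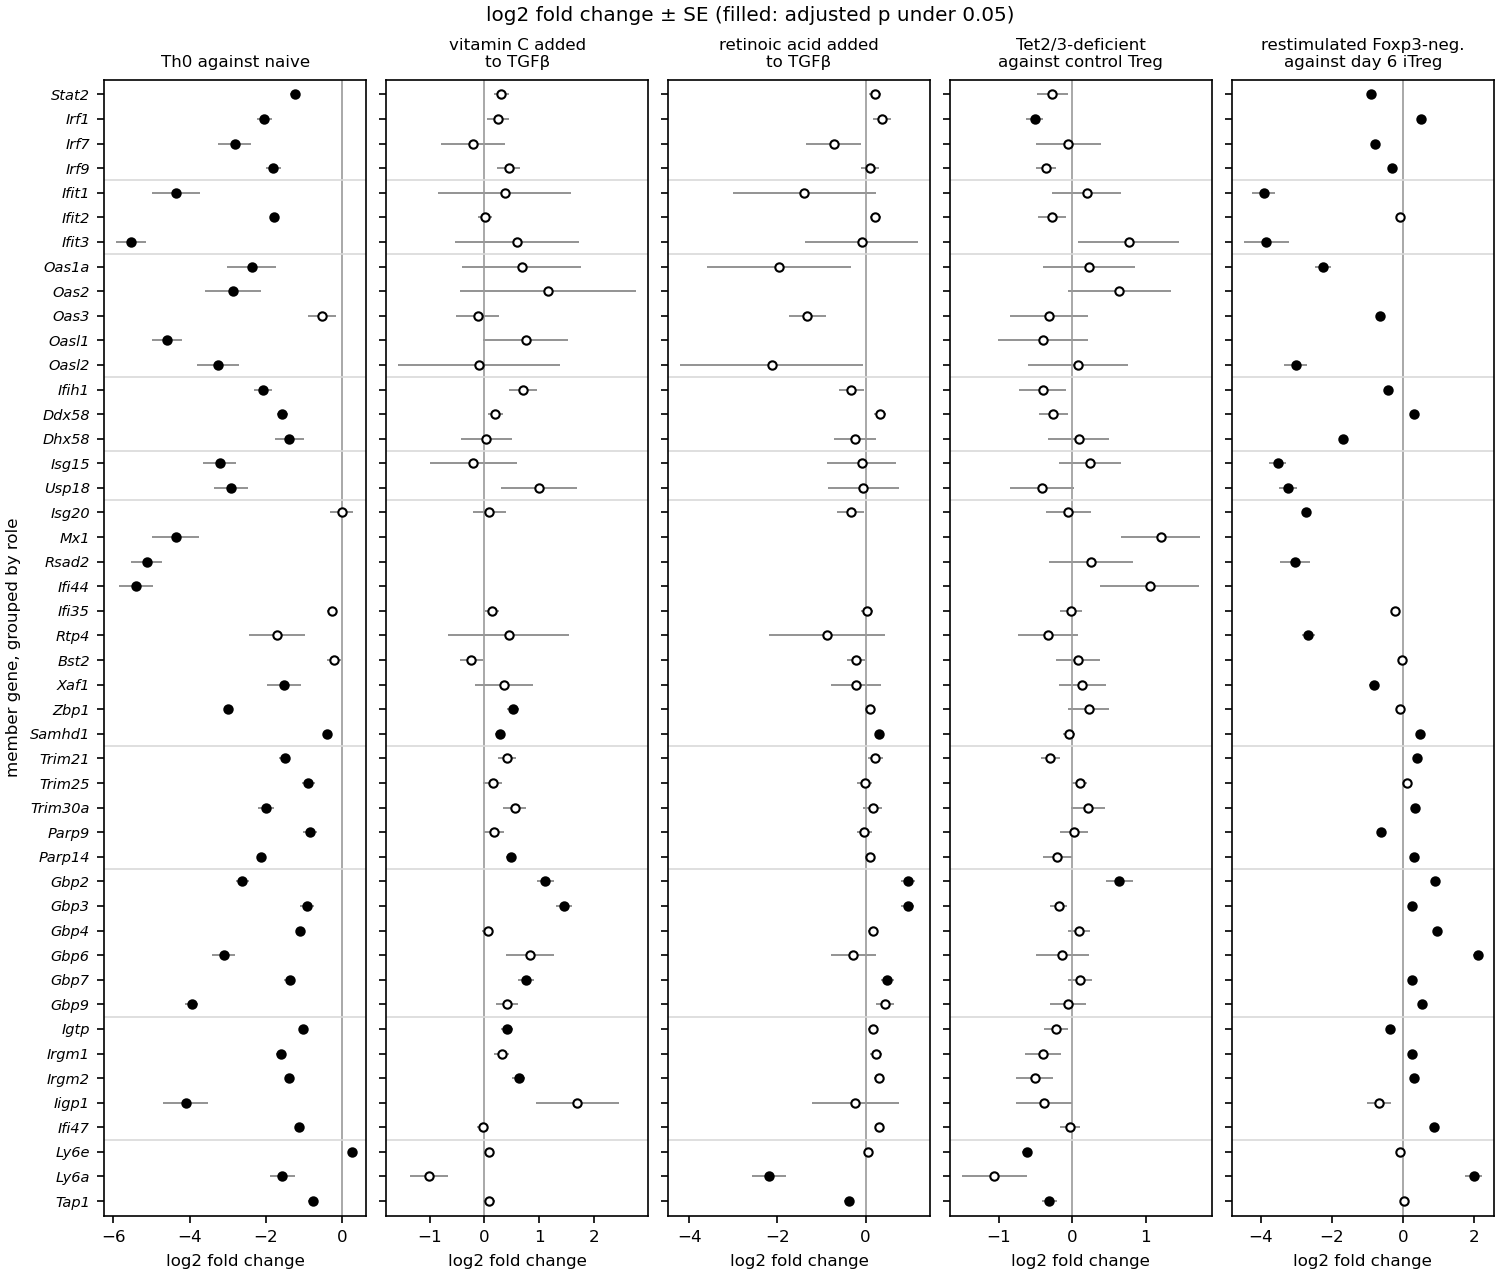
log2 fold change (horizontal axis, own scale in each panel) ± SE of each of the 46 genes (rows, grouped by role) in 5 comparisons; filled points have an adjusted p under 0.05, and a gene with 3 or fewer counts in a group, or under the count filter, has no point. Nearly all points lie left of 0 for Th0 against naive cells. The last panel has guanylate-binding proteins to the right and Ifit1, Ifit3, Isg15, Oas1a, Oas3 and Oasl2 to the left.

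TGFβ iTreg cultures against Th0 asks what TGFβ adds to activation. Here 6 genes rose and 8 fell of 46, where 14.5% and 11.6% of all genes did. The median was -0.39, against -0.0024 over all genes. The rises were all in GTPases and Samhd1. Gbp3 was 2.52 and 3.4 FPKM in Th0 and 7.43 and 8.33 with TGFβ (1.38 ± 0.18, adjusted p = 5.96e-05). Samhd1 rose from 74.4 and 74.4 to 121 and 119 FPKM (0.66 ± 0.09, adjusted p = 7.88e-05), and Irgm2, a regulator of the other immunity-related GTPases, from 8.77 and 12.2 to 16.1 and 16.2 (0.59 ± 0.12, adjusted p = 0.00242). Gbp2 (0.57 ± 0.17, adjusted p = 0.0258), Gbp7 (0.50 ± 0.15, adjusted p = 0.0269) and Igtp (0.38 ± 0.11, adjusted p = 0.0202) also rose. Among the falls, Ifit2 was 10.2 and 12.6 against 6.98 and 6.86 FPKM (-0.75 ± 0.12, adjusted p = 4.12e-04). Rsad2 had 21 counts in Th0, 20 of them in replicate 2, and 1 with TGFβ, a ratio of 22.2 (95% counting interval 3.57 to 917). Oasl2, Gbp6, Bst2, Irgm1, Ifi47 and Tap1 fell by 3.08, 1.54, 0.69, 0.44, 0.35 and 0.34. Other antiviral genes did not pass, and their Th0 pair was far apart: Irf7 was 6.42 and 22.9 against 6.05 and 5.27 FPKM (-1.40 ± 0.51, adjusted p = 0.0851), and Isg15 2.84 and 13.7 against 2.77 and 2.52 (-1.66 ± 0.63, adjusted p = 0.086). Ifit1 (-1.93 ± 1.00, adjusted p = 0.203), Ifit3 (-2.55 ± 0.85, adjusted p = 0.0525), Mx1 (7 against 0 counts) and Iigp1 (-0.95 ± 0.84, adjusted p = 0.448) did not pass either, nor did Irf1 (-0.25 ± 0.20, adjusted p = 0.402), Stat2 (-0.09 ± 0.14, adjusted p = 0.68), Ly6e (0.11 ± 0.07, adjusted p = 0.257) and Ly6a (0.01 ± 0.34, adjusted p = 0.991).

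This count turned on single libraries. Without Th0 replicate 1, 34 genes were called, 31 of them lower with TGFβ, and without Th0 replicate 2, 8 were called, 7 of them higher. The share of all genes called in those fits is not given here. Without TGFβ replicate 1 or 2, 6 and 5 were called. The calls of Gbp3, Samhd1, Irgm2 and Ifit2 held in every fit that left out 1 library, and those of the other 10 did not. Among other pathway genes, 18 rose and 12 fell of 87. Ifitm1 rose from 5.23 and 4.85 to 231 and 201 FPKM (5.39 ± 0.23, adjusted p = 1.79e-08) and Ifitm3 from 111 and 161 to 442 and 458 (1.69 ± 0.16, adjusted p = 5.45e-06). Gbp11 fell by 2.90 and Slfn1, a growth-regulating Schlafen gene, by 1.5. Ifngr1 rose from 79.8 and 94.9 to 233 and 258 FPKM (1.46 ± 0.09, adjusted p = 5.87e-08) and Ifnar1 by 0.40 ± 0.08 (adjusted p = 0.00273). Ifnar2 (0.03 ± 0.08, adjusted p = 0.824) and Ifngr2 (0.29 ± 0.13, adjusted p = 0.117) did not pass. Erythroid and platelet markers summed to 36.3 to 45.4 CPM with TGFβ against 0.781 to 0.894 in Th0, and their part was not tested.

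Vitamin C added to TGFβ cultures raised Gbp3, Gbp2 and Gbp7, guanylate-binding proteins, most. Vitamin C is a cofactor of the TET enzymes, which oxidise 5-methylcytosine in DNA, and the comparison asks what it changes in iTreg cells. Of 46 genes 8 rose and 0 fell, where 8.84% of all genes rose and 7.99% fell, and the median was 0.36 against -0.0007 over all genes. Gbp3 went from 7.43 and 8.33 to 20.2 and 23.6 FPKM (1.45 ± 0.14, adjusted p = 1.46e-05). Gbp2 went from 16.5 and 22.9 to 42.7 and 44 (1.12 ± 0.16, adjusted p = 5.54e-04), and Gbp7 from 14.3 and 14.8 to 22.9 and 27.2 (0.76 ± 0.15, adjusted p = 0.00369). The 2 groups did not overlap for any of these. Of the other guanylate-binding proteins, Gbp6 was 0.867 and 0.84 against 1.58 and 1.52 FPKM (0.83 ± 0.44, adjusted p = 0.224), Gbp9 2.66 and 2.99 against 3.48 and 4.17 (0.41 ± 0.20, adjusted p = 0.172) and Gbp4 17.7 and 18.8 against 18.2 and 20.6 (0.06 ± 0.10, adjusted p = 0.712). Among the immunity-related GTPases, Irgm2 rose from 16.1 and 16.2 to 24.5 and 26.1 FPKM (0.63 ± 0.11, adjusted p = 0.00208) and Igtp, which acts on pathogen vacuoles, from 89.7 and 103 to 122 and 140.4 (0.42 ± 0.11, adjusted p = 0.0178). Iigp1 was 0.293 and 1.07 against 2.34 and 2.14 FPKM (1.7 ± 0.76, adjusted p = 0.172). Zbp1, a sensor of Z-form nucleic acid, rose from 14.5 and 14.3 to 20.5 and 21.6 FPKM (0.52 ± 0.11, adjusted p = 0.00522), Parp14, an ADP-ribosyltransferase, by 0.49 ± 0.10 (adjusted p = 0.00411) and Samhd1 by 0.28 ± 0.09 (adjusted p = 0.0371).

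Antiviral genes with low counts did not pass. Isg15 was 2.77 and 2.52 FPKM with TGFβ and 3.0 and 1.71 with vitamin C (-0.20 ± 0.79, adjusted p = 0.892), Ifit1 0.657 and 0.795 against 0.859 and 1.05 (0.37 ± 1.21, adjusted p = 0.869) and Oasl2 0.349 and 0.213 against 0.271 and 0.265 (-0.10 ± 1.48, adjusted p = 0.975). These levels rest on 7 to 30 counts per library. Irf7 (-0.21 ± 0.58, adjusted p = 0.843), Irf1 (0.25 ± 0.20, adjusted p = 0.439), Stat2 (0.31 ± 0.13, adjusted p = 0.125), Ifit3 (0.59 ± 1.13, adjusted p = 0.761), Bst2 (-0.23 ± 0.21, adjusted p = 0.473) and Ly6e (0.09 ± 0.07, adjusted p = 0.359) did not pass. Ly6a was 103 and 82.4 against 54.4 and 39.1 FPKM (-1.01 ± 0.35, adjusted p = 0.0896). The calls of Gbp2, Gbp3, Gbp7, Irgm2 and Zbp1 held in every fit that left out 1 library. That of Samhd1 was lost without either Th0, either TGFβ or either vitamin C library, that of Parp14 without TGFβ replicate 2, and that of Igtp without TGFβ replicate 1 or vitamin C replicate 2. Th0 libraries are not compared here and enter this fit through the shared spread, the count filter and the normalisation. The counts of calls in fits without them, given next, come without the share of all genes called in those fits. Without Th0 replicate 1, without Th0 replicate 2, and without both (an alternative chosen after seeing the data), 16 genes were called, in the last case 15 higher and 1 lower, with 7 of the 8 kept. Of the other pathway genes 14 rose and 2 fell of 87. Gbp5 rose from 2.33 and 2.72 to 5.96 and 7.11 FPKM (1.35 ± 0.19, adjusted p = 3.26e-04), Cd274, the inhibitory ligand PD-L1, from 3.43 and 5.22 to 9.71 and 10.7 (1.22 ± 0.18, adjusted p = 4.79e-04) and Aim2, a DNA sensor, from 7.15 and 8.72 to 15.7 and 18.3 (1.08 ± 0.15, adjusted p = 2.36e-04). Jak2, a kinase of the interferon-gamma receptor, rose by 0.74 ± 0.11. None of the 4 receptor chains passed, with log2 fold changes from -0.03 to 0.22. Myeloid markers summed to 15.8 to 20.6 CPM with vitamin C against 8.3 to 11.3 without, and 2 CD8 T cell markers to 23.3 to 28.2 against 13.2 to 15.4. Of the CD8 T cell sums, Cd8a was 1.32 to 1.85 CPM with vitamin C and 0 to 0.477 without, and the rest was Cd8b1. The part of these markers in the results was not tested.

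**Figure D4:**
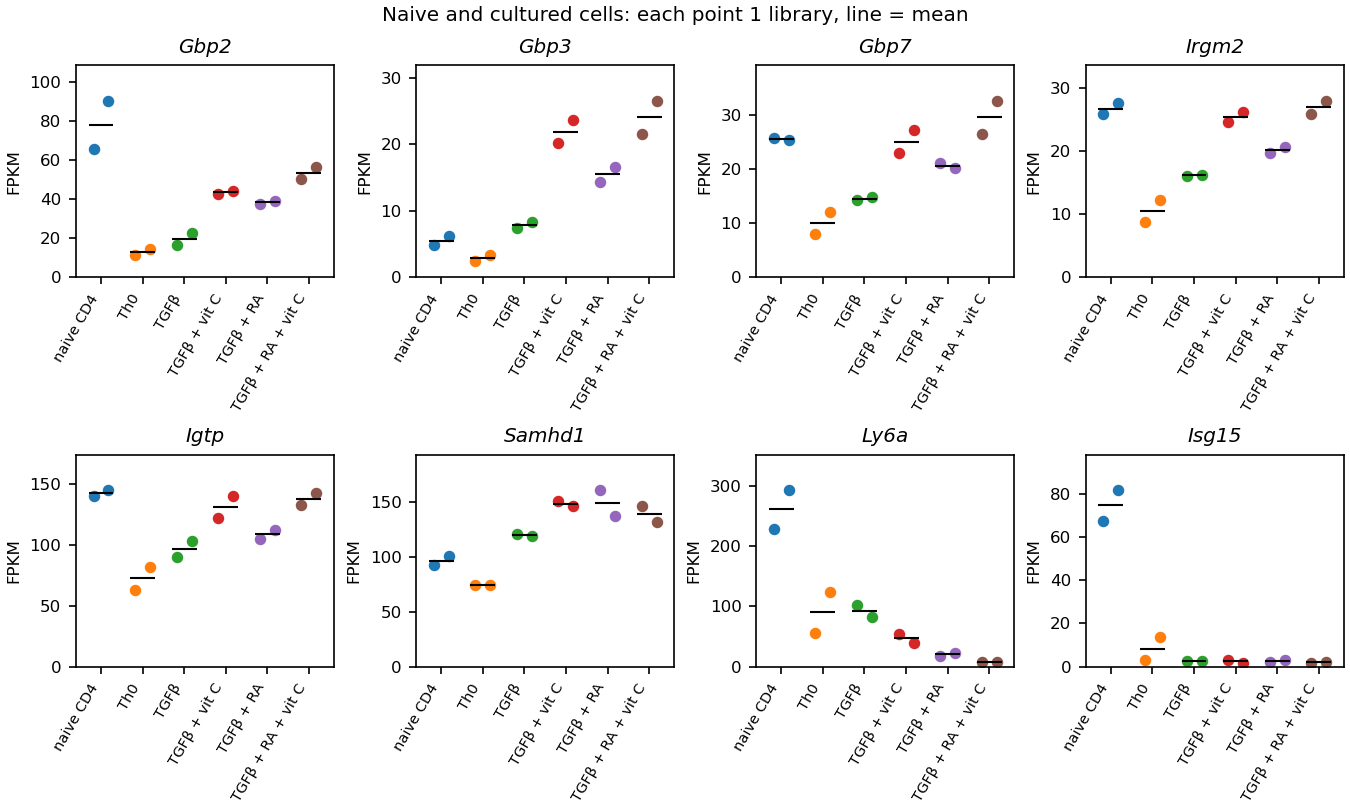
FPKM (vertical axis, from 0) of 8 genes in the naive and cultured groups, with 1 point per library and a line at the mean of each group of 2. Gbp2, Gbp3, Gbp7, Irgm2 and Igtp are higher in the cultures with vitamin C than with TGFβ alone, Ly6a is lowest with RA and vitamin C together, and Isg15 is low in every culture other than Th0 replicate 2.

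Retinoic acid added to TGFβ raised Gbp2, Gbp3 and Gbp7 and lowered Ly6a. Of 46 genes 4 rose and 2 fell, where 7.19% of all genes rose and 9.29% fell. The median was -0.01, and 0.0046 with genes at 0 counts in a group set to their bound and with Mx1 and Ifi44, at 3 or fewer counts in both groups, left out, against 0.02 over all genes. Gbp2 went from 16.5 and 22.9 to 37.6 and 39.2 FPKM (0.95 ± 0.16, adjusted p = 0.0012) and Gbp3 from 7.43 and 8.33 to 14.4 and 16.6 (0.96 ± 0.15, adjusted p = 3.91e-04). Gbp7 rose by 0.49 ± 0.15, adjusted p = 0.0338, and Samhd1 by 0.30 ± 0.09, adjusted p = 0.0266. Ly6a went from 103 and 82.4 to 18 and 23.2 FPKM (-2.18 ± 0.38, adjusted p = 0.00685), the largest change of the list among those that passed. Tap1, the peptide transporter of class I antigen presentation, went from 39.5 and 38 to 29 and 31.3 (-0.37 ± 0.11, adjusted p = 0.032). Irgm2 (0.31 ± 0.11, adjusted p = 0.0776), Igtp (0.16 ± 0.11, adjusted p = 0.349), Iigp1 (-0.23 ± 0.98, adjusted p = 0.907), Irf1 (0.38 ± 0.20, adjusted p = 0.241) and Stat2 (0.22 ± 0.14, adjusted p = 0.31) did not pass. Isg15 was 2.77 and 2.52 against 2.12 and 2.91 FPKM (-0.09 ± 0.79, adjusted p = 0.959), Irf7 6.05 and 5.27 against 2.84 and 4.11 (-0.72 ± 0.62, adjusted p = 0.489) and Oas3 11.1 and 6.97 against 4.21 and 3.08 (-1.32 ± 0.42, adjusted p = 0.0726). Ifit1 (-1.39 ± 1.61, adjusted p = 0.618), Ifit3 (-0.09 ± 1.28, adjusted p = 0.976), Oasl2 (-2.13 ± 2.08, adjusted p = 0.546), Bst2 (-0.22 ± 0.21, adjusted p = 0.518) and Ly6e (0.05 ± 0.07, adjusted p = 0.67) did not pass either. The calls of Gbp2 and Gbp3 held in every fit that left out 1 library. Without TGFβ replicate 1 or RA replicate 1, 2 genes were called, and the adjusted p of Ly6a was 0.066 and 0.0965. Without Th0 replicate 1 or Th0 replicate 2, 13 genes were called, and likewise without both, with 6 higher and 7 lower. These counts from fits with libraries left out come without the share of all genes called. The vitamin C and RA comparisons share the TGFβ libraries as controls.

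Among other pathway genes, 10 rose and 6 fell of 87 with RA. Ifitm1 went from 231 and 201 to 6.52 and 9.18 FPKM (-4.80 ± 0.21, adjusted p = 3.48e-08), Ifitm3 from 442 and 458 to 63.7 and 80.7 (-2.65 ± 0.16, adjusted p = 3.05e-07) and Ifitm2 from 774 and 830.2 to 158 and 206 (-2.15 ± 0.11, adjusted p = 1.54e-08). Epsti1 rose from 73.6 and 80 to 217 and 213 FPKM (1.47 ± 0.08, adjusted p = 1.55e-08). Ifngr1 rose from 233 and 258 to 322 and 348 (0.44 ± 0.09, adjusted p = 0.00405). Ifnar1 (0.20 ± 0.08, adjusted p = 0.114), Ifnar2 (0.16 ± 0.08, adjusted p = 0.212) and Ifngr2 (-0.12 ± 0.13, adjusted p = 0.588) did not pass. Of the plasmacytoid dendritic cell markers, the interferon-producing cells, Siglech was at 0 in all 12 naive and cultured libraries. Their sum was 438 to 790 CPM in the cultures with RA against 63.4 to 77.8 in the TGFβ cultures without it. Of the sums with RA, Ccr9, a gut-homing receptor also made by T cells, was 371 to 717 CPM. Bst2, itself in the list followed here, was 36.9 to 49.7 CPM of the sums with RA and 41.2 to 48.3 of those without. Erythroid and platelet markers summed to 0.85 to 3.5 CPM with RA against 36.3 to 45.4 with TGFβ alone, and myeloid markers to 3.5 to 4.25 against 8.3 to 11.3. The part of these markers was not tested.

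With both supplements against TGFβ alone, 11 genes rose and 2 fell of 46, where 18.3% of all genes rose and 19.2% fell, and the median was 0.20, or 0.22 with the same bound, against 0.01 over all genes. Gbp3 reached 21.5 and 26.6 FPKM (1.58 ± 0.14, adjusted p = 1.29e-06), Gbp2 50.2 and 56.2 (1.41 ± 0.16, adjusted p = 1.76e-05), Gbp7 26.4 and 32.7 (0.99 ± 0.15, adjusted p = 1.30e-04), Irgm2 25.9 and 28 (0.71 ± 0.11, adjusted p = 1.92e-04) and Igtp 133 and 143 (0.49 ± 0.11, adjusted p = 0.00271). Trim21, an intracellular antibody receptor and ubiquitin ligase, rose from 8.61 and 7.87 to 12.3 and 15 FPKM (0.70 ± 0.16, adjusted p = 0.0027). Zbp1, Parp14, Ddx58, Ifit2 and Ly6e also rose, by 0.52, 0.40, 0.43, 0.33 and 0.24. Ly6a fell to 7.28 and 7.78 FPKM (-3.65 ± 0.44, adjusted p = 3.88e-04), the lowest of any group of this table in both libraries, and Oas3 fell from 11.1 and 6.97 to 2.96 and 3.52 (-1.51 ± 0.42, adjusted p = 0.0252). Isg15 was 1.78 and 2.05 FPKM (-0.49 ± 0.82, adjusted p = 0.673), Irf7 3.19 and 4.12 (-0.66 ± 0.61, adjusted p = 0.437) and Iigp1 1.66 and 2.19 (1.48 ± 0.77, adjusted p = 0.175). Irf1 (0.41 ± 0.20, adjusted p = 0.135), Stat2 (0.33 ± 0.13, adjusted p = 0.0629), Ifit1 (-0.89 ± 1.46, adjusted p = 0.67), Ifit3 (-0.91 ± 1.43, adjusted p = 0.653), Oasl2 (-1.47 ± 1.82, adjusted p = 0.566), Bst2 (-0.16 ± 0.21, adjusted p = 0.575) and Samhd1 (0.19 ± 0.09, adjusted p = 0.0997) did not pass. The calls of Gbp2, Gbp3, Gbp7, Irgm2, Igtp, Zbp1, Trim21 and Ly6a held in every fit that left out 1 library. Without Th0 replicate 1, Th0 replicate 2 or both, 21 genes were called, in the last case 16 higher and 5 lower. For the fits with libraries left out, the share of all genes called is not given here. Of the other pathway genes 29 rose and 8 fell of 87. Ifitm1 fell by 4.69, Ifitm2 by 2.32 and Ifi30, a lysosomal thiol reductase, by 1.98, and Epsti1 rose by 2.02. Ifnar1 (0.27 ± 0.08, adjusted p = 0.0174) and Ifnar2 (0.34 ± 0.08, adjusted p = 0.00436) rose, while Ifngr1 (0.18 ± 0.09, adjusted p = 0.122) and Ifngr2 (-0.26 ± 0.13, adjusted p = 0.128) did not pass. CD8 T cell markers summed to 39 to 42.1 CPM with both against 13.2 to 15.4 with TGFβ alone. Of these sums, Cd8a was 19.7 to 21.6 CPM with both and 0 to 0.477 with TGFβ alone. Myeloid markers summed to 21 to 24.7 CPM against 8.3 to 11.3, and B cell markers to 11.6 to 14.6 against 3.05 to 3.47. Erythroid and platelet markers summed to 1.25 to 2.23 CPM against 36.3 to 45.4. The part of these markers in the results was not tested.

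The design also allows each supplement to be added on top of the other. Vitamin C added to TGFβ with RA raised 4 genes and lowered 0 of 46, where 4.31% and 3.22% of all genes did, with a median of 0.13, or 0.17 with that bound, against -0.0097 over all genes. These were Gbp3, from 14.4 and 16.6 to 21.5 and 26.6 FPKM (0.62 ± 0.14, adjusted p = 0.0107), Gbp7, from 21.2 and 20.1 to 26.4 and 32.7 (0.50 ± 0.14, adjusted p = 0.0497), Zbp1, from 15.3 and 15.7 to 20.5 and 21.5 (0.43 ± 0.11, adjusted p = 0.0254), and Irgm2, from 19.7 and 20.6 to 25.9 and 28 (0.40 ± 0.11, adjusted p = 0.0403). Gbp2 was 37.6 and 39.2 against 50.2 and 56.2 FPKM (0.45 ± 0.15, adjusted p = 0.0989) and Ly6a 18 and 23.2 against 7.28 and 7.78 (-1.46 ± 0.49, adjusted p = 0.135). None of these 4 calls held in every fit that left out 1 library. The count was 2 without naive replicate 1, naive replicate 2, TGFβ replicate 1 or the first library with both supplements, 1 without RA replicate 2, and 0 without RA replicate 1 or the second library with both. It was 13 without Th0 replicate 1 or Th0 replicate 2 and 11 without both. RA added to TGFβ with vitamin C lowered 1 gene and raised 0, where 9.3% and 5.81% of all genes did, with a median of -0.12, or -0.11 with the bound, against 0.01 over all genes. This was Ly6a, from 54.4 and 39.1 to 7.28 and 7.78 FPKM (-2.63 ± 0.45, adjusted p = 0.00602). Gbp2 (0.29 ± 0.15, adjusted p = 0.244), Gbp3 (0.13 ± 0.13, adjusted p = 0.602) and Gbp7 (0.23 ± 0.14, adjusted p = 0.325) did not pass. Without vitamin C replicate 1 or either library with both supplements, 0 were called, without vitamin C replicate 2, 2, and without Th0 replicate 1, Th0 replicate 2 or both, 7. In both comparisons the counts from fits with libraries left out come without the share of all genes called. The other genes followed in every comparison (Irf7, Irf1, Stat2, Isg15, Ifit1, Ifit3, Mx1, Oasl2, Iigp1, Ly6e, Bst2 and Samhd1) passed in neither. CD8 T cell markers, at 39 to 42.1 CPM with both supplements, were 11 to 11.6 with RA and 23.3 to 28.2 with vitamin C. Of these sums, Cd8a was 19.7 to 21.6 CPM with both, 3.1 to 3.5 with RA and 1.32 to 1.85 with vitamin C. The part of these markers was not tested.

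Whether the vitamin C effect differs with RA present was tested as an interaction. No gene of the 46 passed, in a fit where 0.0177% of all genes did (2 of 11287), while 3 of the 46 had an unadjusted p under 0.05 and DESeq2 called 0. The effect on Gbp3 was lower with RA by 0.83 ± 0.20 on the log2 scale (adjusted p = 0.27), on Gbp2 by 0.66 ± 0.22 (adjusted p = 0.708) and on Samhd1 by 0.40 ± 0.12 (adjusted p = 0.565). For Gbp3 the call depended on the fit: its adjusted p was 0.0463 with no count filter and 0.0111 with the replicate number as a block, and 0.199 to 0.821 under the other alternatives. Among other pathway genes, 8 rose and 2 fell of 87 with vitamin C on RA, with Ifitm3 from 63.7 and 80.7 to 159 and 160.4 FPKM (1.13 ± 0.16, adjusted p = 7.81e-04) and Aim2 from 7.71 and 8.92 to 17.4 and 17.7 (1.06 ± 0.14, adjusted p = 2.60e-04). With RA on vitamin C 5 rose and 8 fell. Ifitm1 fell from 360.4 and 263 to 10.1 and 7.06 FPKM (-5.20 ± 0.21, adjusted p = 1.91e-08), Ifitm2 by 2.12 and Ifitm3 by 2.04, and Epsti1 rose by 1.55. There Ifnar2 rose (0.28 ± 0.08, adjusted p = 0.031) and Ifngr2 fell (-0.49 ± 0.13, adjusted p = 0.0183).

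Tet2/3-deficient against control Treg cells asks what loss of both enzymes changed ex vivo. Of the interferon response genes 1 rose and 3 fell, of 46 tested, where 16.7% of all 11679 genes rose and 15.8% fell. The median was -0.05, against 0.0007 over all genes. Ly6e fell, from 585, 629, 628 and 599 FPKM in controls S1 to S4 to 369, 405, 451 and 419 in Tet2/3-deficient S5 to S8 (-0.61 ± 0.07, adjusted p = 6.16e-05). Its groups did not overlap. Irf1, a transcription factor induced by interferon-gamma, was 55.3, 75.1, 56.1 and 71.4 FPKM in controls and 44.7, 53.1, 49.3 and 38.8 in Tet2/3-deficient cells (-0.51 ± 0.12, adjusted p = 0.00901), and again every control was higher. Tap1 was 86.4, 96.6, 79.1 and 82.6 against 61.2, 69, 87.9 and 67.3 FPKM (-0.31 ± 0.10, adjusted p = 0.0404), where S7 lay within the control range. Gbp2 rose, from 57.7, 98, 69.7 and 104 to 136, 138, 139 and 115 FPKM (0.64 ± 0.18, adjusted p = 0.0292), with no overlap. The calls of Ly6e and Irf1 held in every fit that left out 1 library. That of Gbp2 was lost without S5, S6, S7 or control S3 (adjusted p = 0.0634 to 0.0729), and that of Tap1 without S5, S6, S8 or controls S1, S2 or S4. The count was 2 without S5 or without S6.

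The ranges of the 2 groups overlapped for the antiviral genes Isg15, Irf7 and Ifit3. Isg15 was 28.4, 81.1, 42 and 65.9 FPKM in controls and 48, 50.1, 116 and 51.3 in Tet2/3-deficient cells (0.25 ± 0.42, adjusted p = 0.69). Irf7 was 24.9, 64.6, 28.9 and 51 against 27.2, 28.8, 76.5 and 35.3 FPKM (-0.05 ± 0.45, adjusted p = 0.943), and Ifit3 9.82, 35.9, 6.94 and 31.7 against 31.2, 17.8, 76.3 and 22.5 (0.77 ± 0.69, adjusted p = 0.436). In each of these genes controls S2 and S4 were above S1 and S3, and S7 was above every other library. Mx1 was 0.377, 1.15, 0.302 and 1.1 against 1.29, 0.792, 3.03 and 1.87 FPKM (1.21 ± 0.54, adjusted p = 0.12), and DESeq2 called it higher (adjusted p = 0.0351). Ly6a was 130.3, 316, 189.7 and 277 against 52.9, 126, 189 and 81.4 FPKM (-1.06 ± 0.44, adjusted p = 0.11). Stat2 (-0.27 ± 0.22, adjusted p = 0.382), Ifit1 (0.20 ± 0.47, adjusted p = 0.779), Oasl2 (0.08 ± 0.68, adjusted p = 0.943), Bst2 (0.08 ± 0.30, adjusted p = 0.865), Samhd1 (-0.04 ± 0.08, adjusted p = 0.752) and Iigp1 (-0.38 ± 0.38, adjusted p = 0.481) did not pass. All 5 immunity-related GTPases had a negative fold change, from -0.51 for Irgm2 to -0.02 for Ifi47, and none passed. Of the other pathway genes 3 rose and 18 fell of 92. Ifng, the cytokine itself, was 1.01, 0.937, 0.809 and 1.0 FPKM in controls and 0.433, 0.207, 0.469 and 0.278 in Tet2/3-deficient cells (-1.46 ± 0.31, adjusted p = 0.0041). These levels rest on few counts, 17, 18, 15 and 21 in controls and 7, 4, 10 and 5 in Tet2/3-deficient libraries. Mb21d1, the DNA sensor cGAS, rose from 2.31 ± 0.241 to 4.17 ± 0.598 FPKM (mean ± SD, n = 4 each; 0.82 ± 0.13, adjusted p = 6.96e-04). Socs3, a feedback inhibitor of cytokine signals, fell from 32.3 ± 6.57 to 19.5 ± 3.05 (-0.76 ± 0.15, adjusted p = 0.00443), and Irf4, a factor of effector Treg cells, rose from 43.8 ± 4.73 to 76 ± 6.42 (0.76 ± 0.09, adjusted p = 8.78e-05). The receptor chains, between -0.0205 and -0.0040, did not pass. Markers of other cells differed between these groups: 9 myeloid markers summed to 44.4 to 154 CPM in Tet2/3-deficient and 43 to 56 in control libraries, 5 NK markers to 36.6 to 54.8 against 10.4 to 14.3, 5 B cell markers to 41 to 59 against 43.1 to 104, and 2 CD8 T cell markers to 3.37 to 5.3 against 24.8 to 28.5. The 4 Tet2/3-deficient libraries, S5 to S8, had 44.4, 106.1, 149.4 and 154.2 CPM of myeloid markers. Of the NK markers, Eomes was 24.7 to 35.7 CPM in Tet2/3-deficient and 3.52 to 5.34 in control libraries. Klrb1c was 8.29 to 12.1 against 3.71 to 5.6 CPM, and Ncr1 0 to 0.125 against 0 to 0.261. Of the CD8 T cell markers, Cd8a was 0.998 to 1.94 CPM in Tet2/3-deficient and 3.9 to 8.1 in control libraries. The part of such cells in these results was not tested.

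**Figure D5:**
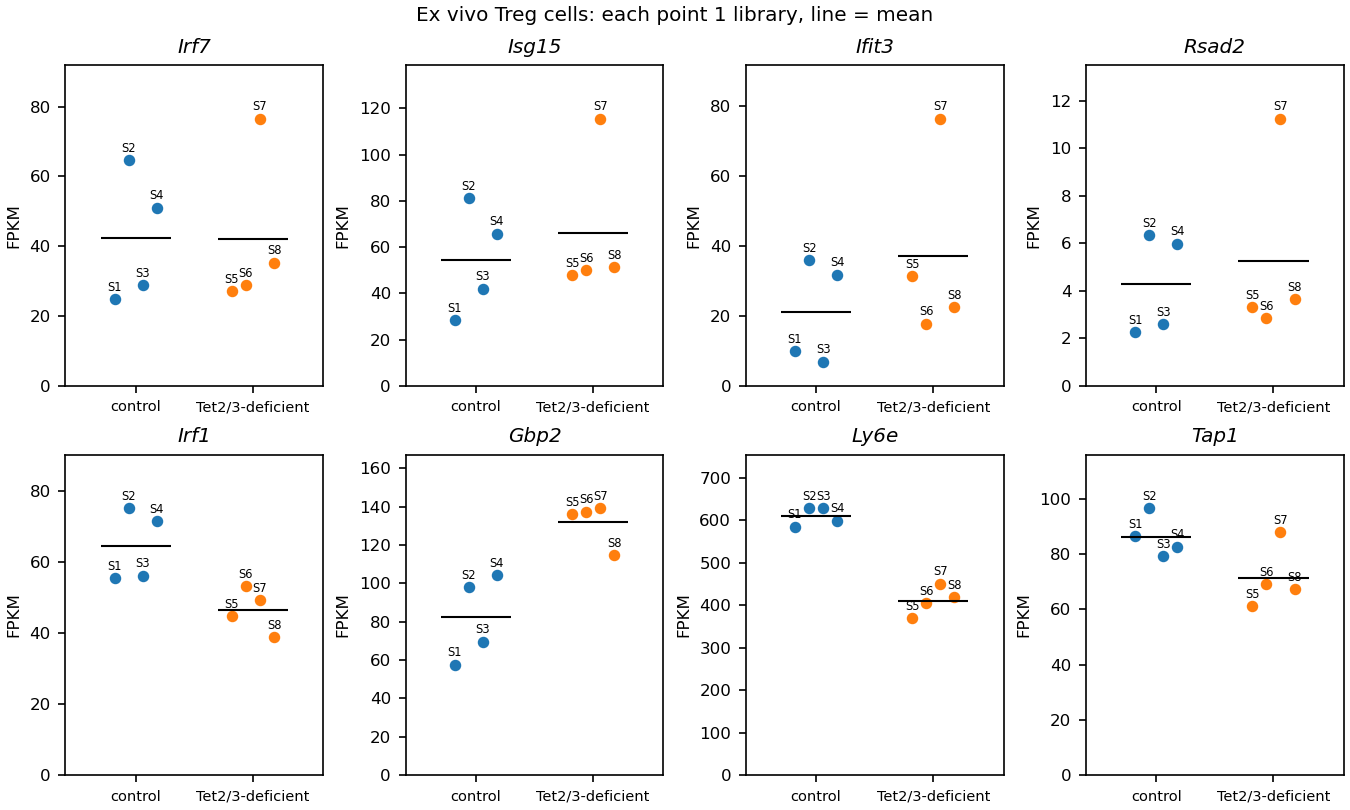
FPKM (vertical axis, from 0) of 8 genes in control and Tet2/3-deficient Treg cells, with 1 labelled point per library and a line at the mean of each group of 4. In the upper row S7 is the highest library and S2 and S4 lie above S1 and S3, while for Irf1, Gbp2 and Ly6e the 2 groups do not overlap.

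Control Treg against naive cells sets ex vivo Treg cells beside naive cells of the same table. The mice differed in age (3 against 5 to 6 weeks) and in the floxed alleles, which cannot be told apart from the cell type. Of 46 genes 3 rose and 11 fell, where 28.6% of all 11738 genes rose and 26.3% fell, with a median of -0.41 against 0.01 over all genes. Gbp3 was 4.83 and 6.16 FPKM in naive and 41.9, 52.6, 42.4 and 55.8 in Treg cells (2.99 ± 0.17, adjusted p = 4.29e-07). Samhd1 went from 92.3 and 100.5 to 167, 219, 195 and 212 FPKM (0.90 ± 0.12, adjusted p = 1.07e-04), and Ly6e from 398 and 417 to 585, 629, 628 and 599 (0.44 ± 0.08, adjusted p = 6.29e-04). Of the other guanylate-binding proteins Gbp4 fell (-0.61 ± 0.20, adjusted p = 0.0359), while Gbp6 (-0.35 ± 0.43, adjusted p = 0.525), Gbp7 (0.22 ± 0.22, adjusted p = 0.418) and Gbp9 (-0.72 ± 0.27, adjusted p = 0.0634) did not pass, and Gbp2 was 65.5 and 90.3 against 57.7, 98, 69.7 and 104 FPKM (-0.06 ± 0.29, adjusted p = 0.888). The OAS family, some of whose members make a second messenger that activates RNase L, held 3 of the falls. Oas2 was 7.36 and 7.65 FPKM in naive and 0.0967, 0.481, 0.19 and 0.426 in Treg cells (-4.75 ± 0.41, adjusted p = 6.65e-05), Oasl2 21.4 and 22.9 against 1.62, 8.18, 2.39 and 6.47 (-2.37 ± 0.66, adjusted p = 0.035), and Oasl1 fell by 2.23. Ifi44 fell from 4.75 and 3.99 to 0.0493, 0.216, 0.0672 and 0.296 FPKM (-4.86 ± 0.43, adjusted p = 9.58e-06). Ifit2, Ddx58 (the RNA sensor RIG-I), Mx1, Irf7, Zbp1 and Irf1 fell by 1.23, 1.09, 1.72, 1.38, 0.89 and 0.40. Isg15 (-0.59 ± 0.45, adjusted p = 0.316), Ifit1 (-1.14 ± 0.53, adjusted p = 0.135), Ifit3 (-1.83 ± 0.74, adjusted p = 0.0952), Stat2 (-0.33 ± 0.26, adjusted p = 0.312), Iigp1 (-0.35 ± 0.48, adjusted p = 0.574), Ly6a (-0.33 ± 0.39, adjusted p = 0.513) and Bst2 (-0.66 ± 0.29, adjusted p = 0.102) did not pass. The calls of Gbp3, Samhd1, Ly6e, Ifit2, Oas2, Ddx58 and Ifi44 held in every fit that left out 1 library. Without either naive library 7 genes were called, without control S3 8 and without control S2 21. Among other pathway genes, 21 rose and 25 fell of 92. Ifitm2 rose from 0.643 and 0.331 to 18.3, 8.82, 10.8 and 9.71 FPKM (4.42 ± 0.50, adjusted p = 4.04e-05), Irf5 by 3.72 and Irf4 by 3.37, and Tlr9, at 3 counts in naive cells, had 201 in the Treg group. Ifnar1, Ifnar2 and Ifngr1 rose by 0.43, 0.35 and 1.14, and Ifngr2 fell by 0.53. Ifng was 1.01, 0.937, 0.809 and 1.0 FPKM in the Treg libraries and 0 and 0.172 in the naive pair. These levels rest on 15 to 21 counts per Treg library and on 0 and 2 counts in the naive pair. B cell markers summed to 43.1 to 104 CPM in Treg against 2.02 to 2.8 in naive libraries, and myeloid markers to 43 to 56 against 9.22 to 10.1. Their part in these results was not tested.

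Restimulated Foxp3-negative against day 6 iTreg cells moved genes of the list in both directions. The cells differ in restimulation, in time and in the Foxp3 sort at once, which cannot be told apart. Of the 43 genes tested 16 rose and 19 fell, where 33.6% of all 11252 genes rose and 35.2% fell, with a median of -0.10 against -0.01 over all genes. Mx1, Ifi44 and Oasl1 were under the count filter. The guanylate-binding proteins all rose, 6 of 6. Gbp6 was 1.01, 1.14 and 0.959 FPKM in day 6 iTreg and 4.35, 4.99 and 4.77 in restimulated cells (2.1 ± 0.12, adjusted p = 5.32e-10), Gbp4 11.1, 11.6 and 9.95 against 20.8, 22.8 and 23.2 (0.96 ± 0.07, adjusted p = 1.02e-08), and Gbp2 10.7, 10.4 and 8.95 against 19.1, 19.5 and 21 (0.91 ± 0.08, adjusted p = 6.22e-08). Each restimulated library was above each day 6 library. Gbp9, Gbp7 and Gbp3 rose by 0.53, 0.26 and 0.26, and the call of Gbp3 was lost without day 6 replicate 1, day 6 replicate 2 or restimulated replicate 3 (adjusted p = 0.0566, 0.0559 and 0.112). Of the immunity-related GTPases, Ifi47 rose from 74, 71.9 and 64 to 135, 135 and 137 FPKM (0.88 ± 0.06, adjusted p = 5.08e-09), Irgm1 and Irgm2 by 0.25 and 0.31, Igtp fell by 0.37 and Iigp1 did not pass (-0.67 ± 0.34, adjusted p = 0.128). Ly6a rose from 48, 83.2 and 52.2 to 261, 259 and 255 FPKM (1.99 ± 0.23, adjusted p = 9.00e-04). Irf1 rose from 13, 16 and 13.4 to 21.3, 21.6 and 21.1 (0.51 ± 0.08, adjusted p = 3.05e-05) and Samhd1 from 92.8, 89.5 and 91.4 to 130.1, 125 and 145 (0.47 ± 0.06, adjusted p = 6.15e-06). Trim21, Trim30a, Parp14 and Ddx58 rose by 0.39, 0.35, 0.32 and 0.32.

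Of the antiviral genes, both of the ISG15 system and 2 of 3 IFIT genes fell. Isg15 was 8.95, 8.91 and 7.86 FPKM at day 6 and 0.82, 0.50 and 1.02 in restimulated cells (-3.52 ± 0.24, adjusted p = 5.08e-09), and Usp18 5.46, 5.51 and 3.24 against 0.50, 0.463 and 0.619 (-3.23 ± 0.26, adjusted p = 5.03e-08). Ifit1 fell from 4.15, 3.37 and 2.25 to 0.235, 0.334 and 0.0978 FPKM (-3.92 ± 0.33, adjusted p = 4.65e-07) and Ifit3 from 1.81, 1.19 and 0.602 to 0.0886, 0 and 0.161 (-3.85 ± 0.63, adjusted p = 1.93e-04), whereas Ifit2 was 5.57, 4.54 and 4.8 against 4.84, 4.5 and 5.31 (-0.10 ± 0.09, adjusted p = 0.383). All 4 OAS genes tested fell. Oas2 had 61 counts at day 6 and 3 after restimulation, a ratio of 19.4 (95% counting interval 6.35 to 96.9). Oasl2 was 1.03, 0.722 and 0.745 against 0.113, 0.0804 and 0.123 FPKM (-3.01 ± 0.33, adjusted p = 9.85e-07), and Oas1a and Oas3 fell by 2.24 and 0.65. Isg20 fell from 55.9, 52.8 and 52.7 to 8.45, 7.81 and 9.25 FPKM (-2.74 ± 0.07, adjusted p = 1.47e-13), Rsad2 from 0.401, 0.427 and 0.38 to 0.0629, 0.0149 and 0.0764 (-3.04 ± 0.41, adjusted p = 1.03e-05) and Rtp4, a chaperone that also restricts viruses, from 10.7, 8.16 and 7.34 to 1.24, 1.16 and 1.89 (-2.66 ± 0.19, adjusted p = 1.07e-08). Dhx58, a cofactor of the RNA sensors, fell by 1.68, Xaf1 by 0.82 and Ifih1, the sensor MDA5, by 0.42. Stat2, Irf7 and Irf9 fell by 0.89, 0.80 and 0.30. Ly6e (-0.10 ± 0.05, adjusted p = 0.125) and Bst2 (-0.02 ± 0.07, adjusted p = 0.834) did not pass. Mx1 had 0.125, 0.18 and 0.124 FPKM at day 6 and 0.0274, 0.0195 and 0.0399 after, and Ifi44 had 15 counts against 0. Of the 35 calls, 34 held in every fit that left out 1 library, with 34 to 36 genes called. Of the other pathway genes 37 rose and 29 fell of 90. Mx2 had 53 counts at day 6 and 0 after, at least 16.9-fold lower, and Cxcl10, an interferon-induced chemokine, 45 and 0, at least 14.3-fold lower, at a floor of 3 counts over the group. Pyhin1 rose from 8.85, 9.0 and 7.3 to 48, 44.2 and 49.8 FPKM (2.42 ± 0.08, adjusted p = 1.13e-12), and Oas1g had 54 counts at day 6 and 7 after. Ifngr1 rose from 155, 167 and 173 to 378, 387 and 388 FPKM (1.14 ± 0.06, adjusted p = 2.24e-10), Ifnar1 and Ifnar2 by 0.45 and 0.36, and Ifngr2 fell by 0.80. NK cell markers summed to 31.1 to 35.7 CPM in restimulated and 1.05 to 2.2 in day 6 libraries. Of the restimulated sum, Eomes was 20.6 to 23.7 CPM and Klrd1 10.4 to 11.9. Ncr1 was 0 in every restimulated library and Klrb1c 0 to 0.064 CPM. Erythroid and platelet markers summed to 0.189 to 0.266 CPM against 37 to 64.1. The part of these markers in the result was not tested.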

How the data were processed

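Messenger RNA of 26 libraries was counted by the authors, and their deposited tables hold whole read counts over exons of 21761 genes (92 without a symbol in the first table), and FPKM. FPKM in the deposited tables equal the count over the library total and exon length. Per the submitters' processing notes, the build was mm9, and the tools included TopHat2 2.1.1, Trim Galore 0.4.2, edgeR 3.26.6, R 3.6.1, Picard 2.5.0, SAMtools 1.7 and bcl2fastq 2.20.0.442. Libraries were stranded mRNA, per the labels' protocols. The counting tool, annotation and strand setting are not given in the sources used here. Deposited RPM values were not used.

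Groups came from the labels. Ex vivo Treg columns name a group and a number (S1 to S8) that is tied to no single sample by the labels.

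Counts were tested in R 4.3.3 with edgeR 4.0.16: TMM, filterByExpr, 2-sided robust quasi-likelihood F tests. Adjustment was by Benjamini-Hochberg across every gene tested, at 0.05. The 12 naive and cultured libraries shared a fit with 6 residual degrees of freedom, and the Tet2/3 comparison had 6, control Treg against naive 4 and restimulation 4. The SE is the size of the log2 fold change over the square root of F. Alternatives were RLE factors, no filter, DESeq2 1.42.0, limma 3.58.1 on log2 FPKM plus 1 (restimulation only), other library sets, a replicate block and each library left out. The tests were checked on simulated counts.

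The members and lists were chosen with earlier results of these data known. In each comparison every called member could be named, the 10 largest first, and 14 members were followed whatever their call. Of the other pathway genes, the 4 largest called changes, the receptor chains and Ifng were named. One gene is not reported here. No 2 replicates were the same library: their counts differed with a chi-square of 2.23 to 22.4 for each degree of freedom. Intervals and floors cover counting error only.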

Additional observations from a re-analysis of the deposited data

Results flagged for a closer look

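In 16 of 92 gene-by-group checks, 1 of 4 ex vivo Treg libraries lay far from the other 3 by Dixon's gap criterion, which chance meets in about 1 in 20 groups. In 14 of these it was Tet2/3-deficient S7, and it was high. Its FPKM was 76.5 for Irf7 and 43.9 for Irf9, transcription factors of the response. It was 3.06 for Oasl1 and 11.2 for Oasl2, 8.77 for Ifih1 and 24.2 for Ddx58. It was 116 for Isg15, 31.7 for Usp18, 52.4 for Isg20 and 11.2 for Rsad2. It was 46.2 for Rtp4, 14 for Xaf1, 114 for Zbp1 and 59.3 for Trim30a. Gbp2 was low in Tet2/3-deficient S8, at 115 FPKM, and Ifi35 was low in control S1, at 12.3 FPKM. These genes share the libraries, so the checks are not independent. The share of all genes that meet this criterion is not given here.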

How the results depend on the processing

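Fitting only the groups compared called 8 genes for TGFβ against Th0, 17 for vitamin C, 21 for both supplements and 6 for RA on vitamin C. Without both Th0 libraries, chosen after seeing the data, 16 were called for vitamin C, 13 for RA, 21 for both, 11 for vitamin C on RA and 7 for RA on vitamin C. With no count filter 9 were called for control Treg against naive, 2 for RA on vitamin C and 1 for the interaction, and DESeq2 called 2 for RA on vitamin C. Leaving out 1 library gave 2 to 4 calls for Tet2/3, 41 to 45 for Th0, 5 to 34 for TGFβ, 6 to 16 for vitamin C, 2 to 13 for RA, 9 to 21 for both, 0 to 13 for vitamin C on RA, 0 to 7 for RA on vitamin C, 0 for the interaction, 7 to 21 for control Treg against naive and 34 to 36 for restimulation. All counts from alternative fits cover the list alone, without the share of all genes called in the same fit. The cause of the differences was not tested. No gene result called in the main or the alternative fit changed sign between them. Whether a gene was called stayed the same in 3609 values, and a call was lost in 183 and gained in 71.

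Deviations of same-numbered samples correlated by 0.203 to 0.379 in the 6 pairs among the TGFβ cultures, by 0.012 to 0.091 in the 9 pairs with naive or Th0 cells and by 0.076 to 0.184 in the restimulation table. No label ties the numbers to a mouse or day, 2 libraries a group cannot settle it, and not every restimulation pair was over 0.1, so the samples were not treated as paired. With the replicate number as a block, 42 genes were called for Th0, 13 for TGFβ, 8 for vitamin C, 9 for RA, 15 for both, 9 for vitamin C on RA, 3 for RA on vitamin C, 1 for the interaction (Gbp3) and 36 for restimulation. For Tet2/3 and for control Treg against naive no paired analysis was possible because the ex vivo Treg columns carry no replicate numbers of the labels. Low counts limit Mx1, Ifi44 and Rsad2 in the cultures.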
